A study of Mus musculus with 12 samples.

Results

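The nuclear-encoded subunits of the oxidative phosphorylation machinery were followed in naive CD4 T cells of mice transgenic for PP2Ac (Tg), which is the product of Ppp2ca and the catalytic part of the phosphatase PP2A, and of wild-type mice (WT). The members were the probe sets with exactly 1 gene symbol that begins with Nduf and a subunit letter and number (complex I), is Sdha, Sdhb, Sdhc or Sdhd (complex II), begins with Uqcr (complex III), begins with Cox, a number from 4 to 8 and a letter from a to c (complex IV), or begins with Atp5 (complex V). The rule used names and no measured values. It took 103 of the 28853 probe sets on the array, for 79 genes: 39 probe sets for 35 genes of complex I, 4 for 4 genes of complex II, 11 for 8 genes of complex III, 19 for 15 genes of complex IV and 30 for 17 genes of complex V. All 103 were tested, and no filter on low values was applied.

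Both genotypes were C57BL/6 mice, and the cells of each were studied without stimulation (0 h) and after 6 h and 24 h with soluble antibodies to CD3 (0.25 ug/mL) and CD28 (0.5 ug/mL) in plates coated with goat antibody to hamster immunoglobulin. The 6 groups were thus Tg cells at 0, 6 and 24 h and WT cells at 0, 6 and 24 h, with 2 one-colour arrays of total RNA each, 12 in all. In each group 1 array has the mark Rep in its title and 1 has none. The labels of the WT groups also carry the word transgenic, without naming a transgene, and the sources used here do not give the promoter that drives the PP2Ac transgene. The labels do not say that the arrays of a group came from separate mice or cultures, so every p-value measures only the spread between these samples, which may be technical.

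In the mitochondrial inner membrane, complexes I and II pass electrons from NADH and succinate to ubiquinone, complex III passes them on to cytochrome c and complex IV to oxygen. Complexes I, III and IV pump protons as they do so, and complex V, the ATP synthase, uses the returning protons to make ATP. Resting naive T cells depend mainly on this pathway, and T cells stimulated through their antigen receptor enlarge their mitochondria while also raising glycolysis. Subunits encoded by mitochondrial DNA, among them the catalytic core of complex IV, were not analysed here.

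The probe set of Ppp2ca (10375926) averaged 13.89 in Tg cells and 13.15 in WT cells at 0 h, 13.75 and 13.36 at 6 h, and 13.81 and 13.21 at 24 h on the log2 scale, with no overlap between the genotypes at any time. Averaged over the times it was higher in Tg cells by 0.57 ± 0.05 (SE; limma adjusted p = 0.0044). At single times the differences of 0.74 at 0 h, 0.38 at 6 h and 0.60 at 24 h did not pass (limma adjusted p = 0.055 at 0 h and 0.28 at 24 h). The mean of 5 CD4 T cell markers was 12.72 to 13.31 on every array. The mean of 4 naive T cell markers was 13.60 to 13.71 at 0 h, 12.35 to 12.82 at 6 h and 12.58 to 12.79 at 24 h. That of 6 T cell activation markers was 9.80 to 10.10, then 12.29 to 12.55 and 11.77 to 12.59. Markers of other cells were measured too, and their means differed between the times. The mean of 4 B cell markers was 11.16 to 11.42 at 0 h, 9.90 to 10.66 at 6 h and 10.84 to 11.42 at 24 h. That of 4 NK cell markers was 8.52 to 9.35, then 7.51 to 8.59 and 7.50 to 8.14, and that of 4 dendritic cell markers 8.28 to 8.80, then 7.48 to 7.92 and 7.08 to 7.52. Of 5 erythroid markers 2 were measured, with means of 7.31 to 9.15, then 7.49 to 8.56 and 6.95 to 7.09. The B, NK and dendritic cell means were thus lower at 6 h than at 0 h in each genotype, whereas the mean of 2 CD8 T cell markers was highest at 24 h. It was 9.63 and 9.09 at 0 h, 10.23 and 9.21 at 6 h and 11.02 and 10.18 at 24 h in Tg cells, and 9.34 and 9.26, then 9.78 and 9.05, and 10.27 and 9.88 in WT cells. That of 7 neutrophil markers was 12.15 and 11.47, then 11.44 and 10.90, and 10.65 and 10.42 in Tg cells, with 9.06, 8.78 and 8.10 on the 3 WT arrays marked Rep, against 12.37, 11.77 and 11.49 on the unmarked ones. The mean of 6 monocyte and macrophage markers was likewise 8.26 to 8.96 on those 3 arrays and 10.06 to 10.80 on the others. The mean of 4 cell division markers was 8.70 to 9.68 at 0 h and 8.45 to 9.20 at 6 h, and it was higher at 24 h. At 24 h it was 12.45 and 10.84 in Tg cells on the unmarked array and the one marked Rep, and 12.37 and 11.08 in WT cells. The part of these cells and markers in the results was not tested.

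Most members were bright. The mean level of a member over the 12 arrays had a median of 11.43 on the log2 scale and ran from 4.64 to 14.08, and 96 of the 103 lay above the median of all tested probe sets on every array. The exception at the low end was Cox7b2, a testis form of a complex IV subunit, which stayed under the lower quartile (6.00 to 6.02) on all arrays. In Tg cells the median level of the 103 members was 11.08 and 11.13 at 0 h, 11.47 and 11.43 at 6 h, and 11.65 and 11.63 at 24 h. In WT cells it was 11.13 and 11.14 at 0 h, 11.51 and 11.45 at 6 h, and 11.73 and 11.71 at 24 h. The stimulated arrays stood above the unstimulated ones in both genotypes without overlap, while the median of all 23410 tested probe sets stayed between 7.78 and 7.85 on every array. By complex the median level did not always follow. For the 11 probe sets of complex III, where the probe set in the middle was that of Uqcrh on all 4 arrays at 6 h, it was 12.03 and 11.86 at 6 h in Tg cells, below 12.15 and 12.11 at 0 h, and 12.15 and 11.91 at 6 h in WT cells, below 12.22 and 12.19. For complex I it was 10.95 and 10.88 at 6 h in Tg cells, against 10.75 and 10.88 at 0 h, and 10.97 and 10.91 in WT cells, against 10.96 and 10.97. The 6 h medians of complexes II, IV and V were above those at 0 h in both genotypes without overlap.

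**Figure D1:**
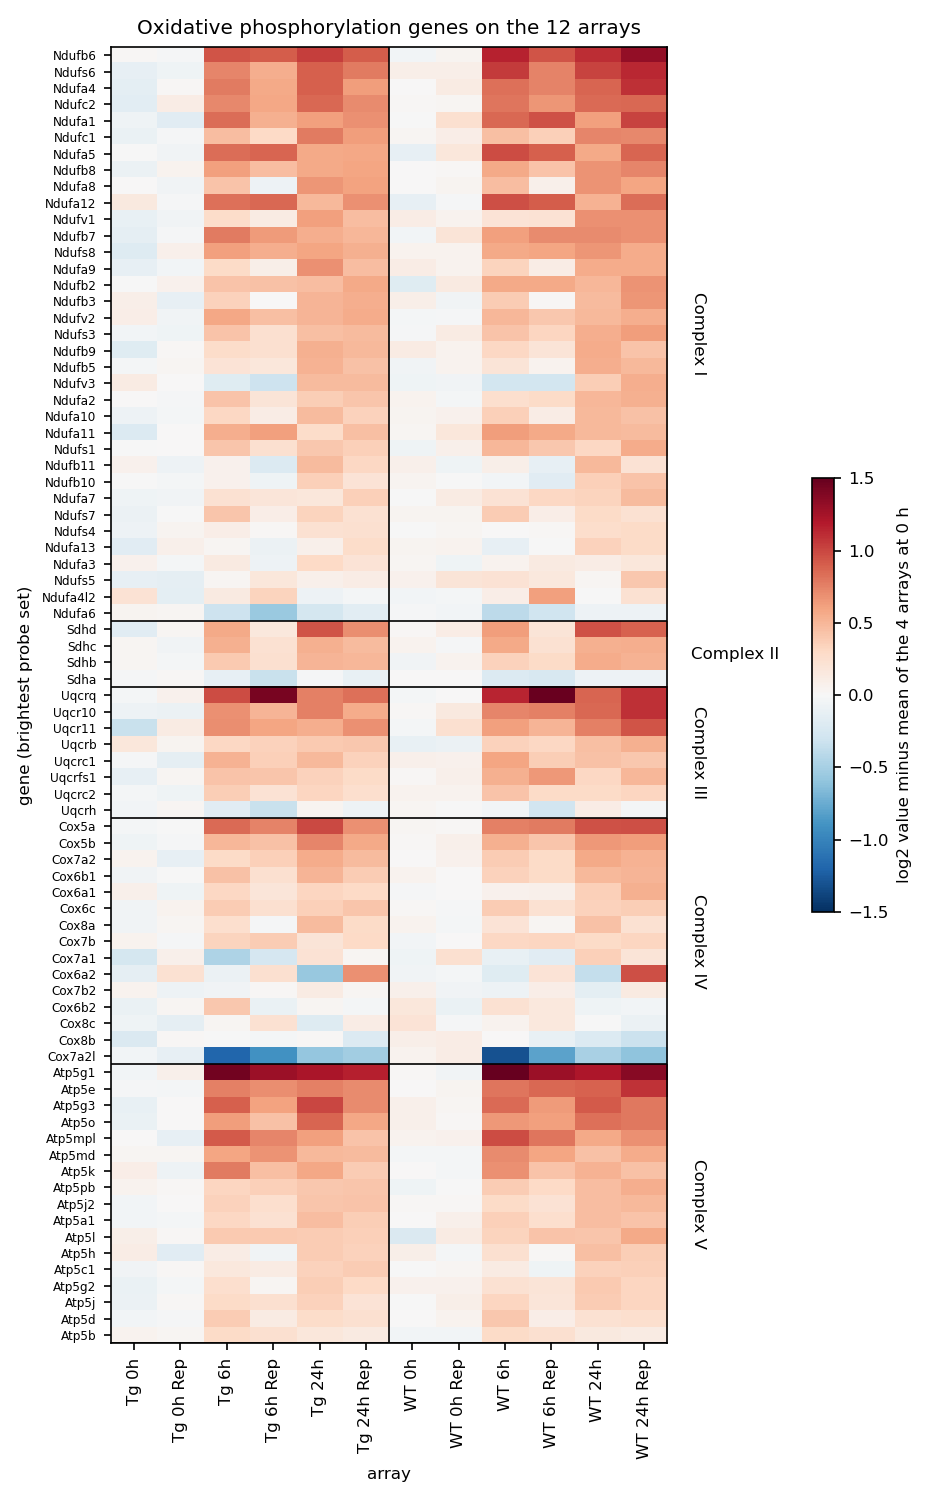
Heat map of the 79 genes, each shown by its brightest probe set, on the 12 arrays; the colour is the log2 value minus the mean of the 4 arrays at 0 h, red above and blue below, with the Tg arrays left of the WT arrays. Most rows are red at 6 h and 24 h in both genotypes, Atp5g1 and Uqcrq most deeply, and Cox7a2l is the deepest blue row.

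The greater part of the family was higher after stimulation in both genotypes. No group was cultured for 6 h or 24 h without stimulation, so stimulation and time in culture cannot be told apart. At 6 h, 59 of the 103 probe sets were higher and 4 lower in Tg cells than at 0 h (limma, adjusted p under 0.05), where 12.5% of all tested probe sets were called higher and 12.9% lower. In WT cells 58 were higher and 3 lower, against 12.6% higher and 13.9% lower of all tested. At 24 h, 77 were higher and 0 lower in Tg cells (12% and 11.8% of all tested), and 82 were higher and 2 lower in WT cells (12.9% and 13.8% of all tested). Over all members the median difference from 0 h was 0.32 at 6 h and 0.42 at 24 h in Tg cells, and 0.33 and 0.50 in WT cells, beside medians of 0.00, -0.01, -0.01 and -0.02 over all tested probe sets. Counted by the brightest probe set of each of the 79 genes, 44 rose at 6 h and 60 at 24 h in Tg cells, and 41 and 60 in WT cells. The comparisons at 6 h and 24 h share the arrays at 0 h within a genotype. In bulk RNA, more cells of a type and more RNA per cell cannot be told apart.

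Of the 3112 tested probe sets at least as bright as the median member, 24.5% were called higher at 6 h in each genotype, and 23.2% at 24 h in Tg cells and 23.7% in WT cells. The Tg and WT comparisons use different arrays but 1 estimate of the spread per probe set, taken from all 12. Of the higher calls at 6 h 53 were the same probe sets, 89.8% of the Tg calls and 91.4% of the WT calls, close to the 87.5% and 86.6% over all tested probe sets. At 24 h the shared higher calls were 76, or 98.7% of the Tg calls and 92.7% of the WT calls, beside 86.4% and 80.3% over all. In fits of the compared groups alone, where the genotypes share no array, 32 of 44 Tg calls and 36 WT calls were shared at 6 h (72.7% and 88.9%, beside 72.4% and 93.8% over all tested), and 50 of 62 and 58 at 24 h (80.6% and 86.2%, beside 73.9% and 84.4%). The counts moved with single arrays. At 6 h the higher count in Tg cells was 38 without the 0 h array marked Rep and 36 without the unmarked 6 h array, and in WT cells it was 37 without the unmarked 0 h array. At 24 h it was 49 and 48 in Tg cells without the unmarked and the marked 0 h array and 50 without the unmarked 24 h array, and in WT cells 54 without the 24 h array marked Rep and 39 without the 3 WT arrays marked Rep. Without each array in turn, 33 of the 59 and 34 of the 58 calls at 6 h, and 38 of the 77 and 52 of the 82 at 24 h, were kept every time in Tg and WT cells. The 0 lower calls in Tg cells at 24 h became 2 without either WT array at 6 h, and the 2 lower calls in WT cells at 24 h became 0 without either 0 h array or the 24 h array marked Rep, and 1 without either Tg array at 6 h or the unmarked WT array at 24 h.

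**Figure D2:**
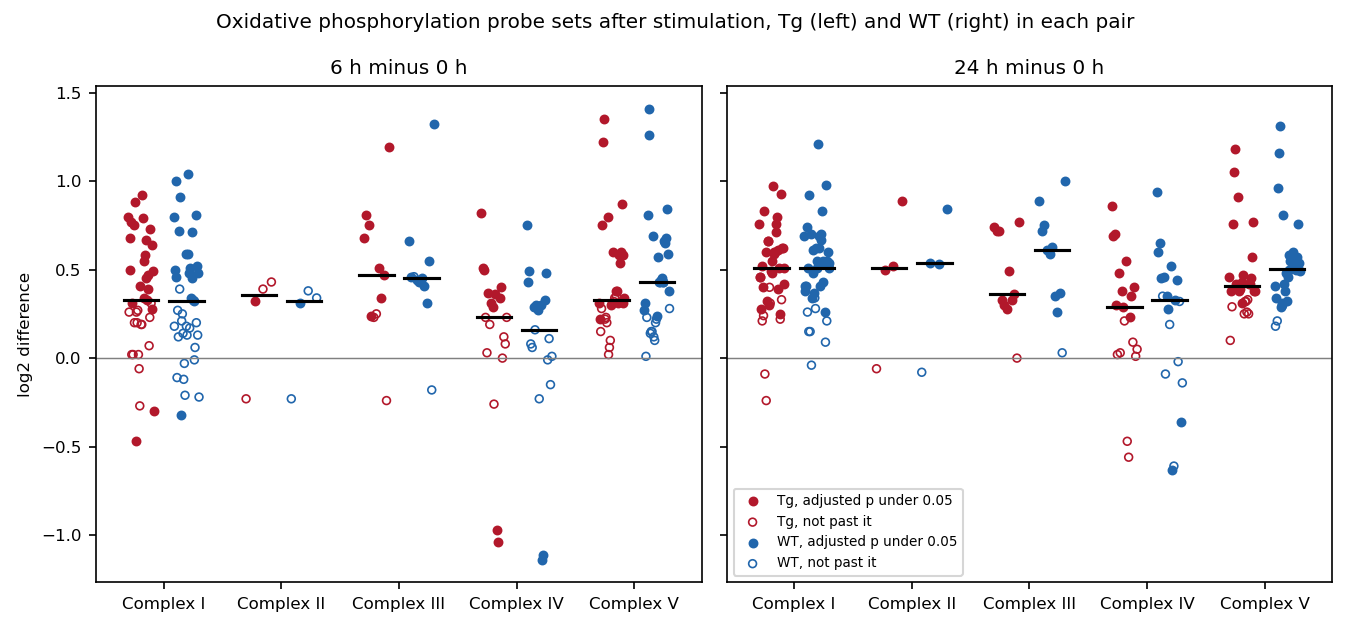
Log2 difference from 0 h of each probe set at 6 h and 24 h, by complex, for Tg cells and WT cells; filled points passed the test (limma, adjusted p under 0.05) and bars mark the median of each complex. The medians of all 5 complexes lie above 0 at both times, from 0.16 to 0.61, and the points of complex IV reach furthest below 0.

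All 5 complexes took part, to different degrees. Complex III had the largest share of probe sets called higher at 6 h, 8 of 11 in Tg cells and 9 of 11 in WT cells, with medians of 0.47 and 0.45. Complex IV had the smallest medians at both times, 0.23 at 6 h and 0.29 at 24 h in Tg cells and 0.16 and 0.33 in WT cells, and it held 2 of the falling probe sets at 6 h in each genotype. Its medians include isoforms known from other tissues (Cox6a2, Cox6b2, Cox7a1, Cox7b2, Cox8b and Cox8c), none of which was called higher. The rank of complex IV is thus not that of its commonly used subunits alone. It does not show that those subunits rose less than the subunits of other complexes. In complex I, 22 of 39 rose at 6 h and 31 at 24 h in Tg cells, and 19 and 31 in WT cells. In complex II 1 of 4 rose at 6 h and 3 of 4 at 24 h in each genotype. In complex V 19 of 30 rose at 6 h and 22 at 24 h in Tg cells, and 20 and 28 in WT cells, and all 30 differences were positive in each of these 4 comparisons. Differences between complexes were not tested. The 103 probe sets are not 103 separate measurements: 16 genes had several, 40 probe sets in all with 6 for Atp5l, and the largest gap between differences of the same gene in the same comparison was 0.21, for Ndufb11 in Tg cells at 6 h.

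Complex I, the NADH dehydrogenase, has an electron-carrying core with many accessory subunits around it. Of the 7 probe sets analysed here for its nuclear core, 6 rose at 6 h and 6 at 24 h in Tg cells, and 5 and 6 in WT cells. Ndufv1 encodes the subunit that binds NADH and flavin. In Tg cells it read 10.76 and 10.82 at 0 h, 11.15 and 10.99 at 6 h, and 11.48 and 11.33 at 24 h. In WT cells it read 10.98 and 10.92 at 0 h, 11.07 and 11.09 at 6 h, and 11.56 and 11.55 at 24 h. The 3 times did not overlap in either genotype. The difference from 0 h was 0.62 ± 0.09 in Tg cells and 0.60 ± 0.09 in WT cells at 24 h (SE; limma adjusted p = 0.0012 and 0.0010), and 0.28 and 0.13 at 6 h. Of the 6 h values the Tg one passed (adjusted p = 0.039), but it missed, with adjusted p up to 0.23, without any of 9 arrays, all but the 2 Tg arrays at 24 h and the Tg array at 6 h marked Rep.

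Ndufs8, which carries iron-sulfur clusters near the ubiquinone site, read 11.64 and 11.91 at 0 h, 12.45 and 12.38 at 6 h, and 12.43 and 12.37 at 24 h in Tg cells. The WT arrays read 11.89 and 11.89, then 12.40 and 12.42, and 12.50 and 12.39 at the same times. It rose by 0.64 and 0.62 in Tg cells and by 0.52 and 0.55 in WT cells at 6 h and 24 h, without overlap with 0 h. Ndufv2, an iron-sulfur subunit beside Ndufv1, rose by 0.49 and 0.51 in Tg cells and by 0.48 and 0.54 in WT cells, and no single array ended a call of either gene. The 2 probe sets of Ndufs3, another core subunit, rose by 0.39 and 0.47 at 6 h and by 0.51 and 0.61 at 24 h in Tg cells, and by 0.32 and 0.33 and by 0.53 and 0.55 in WT cells. Its 6 h calls were less firm: 1 probe set missed in Tg cells without the 0 h array marked Rep or the unmarked 6 h array (adjusted p up to 0.081), and both missed in WT cells without the unmarked array of either time, and 1 also without the 6 h array marked Rep (up to 0.16). Ndufs1, the largest core subunit, differed from 0 h by 0.33 and 0.39 in Tg cells and by 0.45 and 0.43 in WT cells (adjusted p from 0.0098 to 0.043). Its Tg call at 6 h passed in 2 of 12 fits that left out 1 array (adjusted p up to 0.24), its Tg call at 24 h missed without any of the 4 Tg arrays compared (up to 0.12), and its WT calls missed without the unmarked 0 h array and, at 6 h, the unmarked 6 h array or, at 24 h, the 24 h array marked Rep (up to 0.095). Ndufs7, which passes electrons on to ubiquinone, read 0.20 to 0.33 higher and passed in none of the 4 comparisons (adjusted p from 0.092 to 0.31).

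Among the 31 accessory probe sets of complex I, 16 rose and 2 fell at 6 h and 25 rose at 24 h in Tg cells, and 14 rose, 1 fell and 25 rose in WT cells. Ndufb6, a subunit of the membrane arm, had the largest difference of complex I in all 4 comparisons. In Tg cells it read 11.21 and 11.18 at 0 h, 12.14 and 12.10 at 6 h, and 12.23 and 12.10 at 24 h. Its WT values were 11.16 and 11.24 at 0 h, 12.35 and 12.14 at 6 h, and 12.30 and 12.52 at 24 h. All 8 stimulated arrays lay above all 4 unstimulated ones. The rise was 1.90-fold at 6 h and 1.96-fold at 24 h in Tg cells and 2.06-fold and 2.31-fold in WT cells (limma adjusted p from 0.00011 to 0.0004).

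Ndufs6, which carries zinc and joins late in assembly, read 9.61 and 9.67 at 0 h, 10.46 and 10.28 at 6 h, and 10.63 and 10.51 at 24 h in Tg cells. WT cells gave 9.82 and 9.82, then 10.78 and 10.47, and 10.74 and 10.86. It rose by 0.73 and 0.93 in Tg cells and by 0.81 and 0.98 in WT cells. Ndufa5, of the peripheral arm, rose by 0.88 and 0.60 in Tg cells and by 0.91 and 0.70 in WT cells. No single array ended a call of Ndufb6, Ndufs6 or Ndufa5. Ndufa12, of the same arm, rose by 0.77 and 0.52 in Tg cells and by 1.0 and 0.74 in WT cells, and its Tg call at 24 h missed without the array marked Rep at 0 h or at 24 h (adjusted p up to 0.096). Ndufa1, a small membrane subunit encoded on the X chromosome, rose by 0.80 at 6 h in each genotype and by 0.76 in Tg cells and 0.69 in WT cells at 24 h. Those 24 h calls missed in Tg cells without the 0 h array marked Rep (adjusted p = 0.052) and in WT cells without the unmarked 0 h or the marked 24 h array (up to 0.066). Ndufa4, which the rule places here but which is now regarded as a complex IV subunit, rose by 0.75 and 0.83 in Tg cells and by 0.72 and 0.92 in WT cells. Ndufc2, a membrane arm subunit chosen after its values were seen, rose by 0.67 and 0.80 in Tg cells and by 0.71 and 0.83 in WT cells.

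A few accessory subunits went the other way at 6 h. Ndufa6, which contacts the acyl carrier protein near the ubiquinone site, read 11.19 and 11.18 at 0 h, 10.84 and 10.59 at 6 h, and 10.89 and 10.99 at 24 h in Tg cells. In WT cells it read 11.13 and 11.11 at 0 h, 10.76 and 10.85 at 6 h, and 11.08 and 11.08 at 24 h. It fell by 0.47 in Tg cells and by 0.32 in WT cells at 6 h (SE 0.09 each; adjusted p = 0.0051 and 0.034), and the differences at 24 h were -0.24 and -0.04 (adjusted p = 0.10 and 0.81). The Tg call was kept without each array in turn, the WT call missed without any of the 4 arrays at 0 h or the 2 WT arrays at 6 h (up to 0.16), and median centring ended both. Ndufv3, a small subunit of the NADH-binding module, read 9.95 and 9.83 at 0 h, 9.65 and 9.52 at 6 h, and 10.31 and 10.31 at 24 h in Tg cells. The WT arrays read 9.76 and 9.78, then 9.56 and 9.55, and 10.20 and 10.37. The 6 h arrays were thus the lowest and the 24 h arrays the highest in both genotypes. The difference at 6 h was -0.30 in Tg cells, which passed, and -0.22 in WT cells, which did not (adjusted p = 0.031 and 0.11). The Tg call missed without either 0 h array or the 6 h array marked Rep (up to 0.18). At 24 h Ndufv3 had risen over 0 h by 0.42 in Tg cells and by 0.51 in WT cells, of which the Tg call missed without the 0 h array marked Rep (adjusted p = 0.070).

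**Figure D3:**
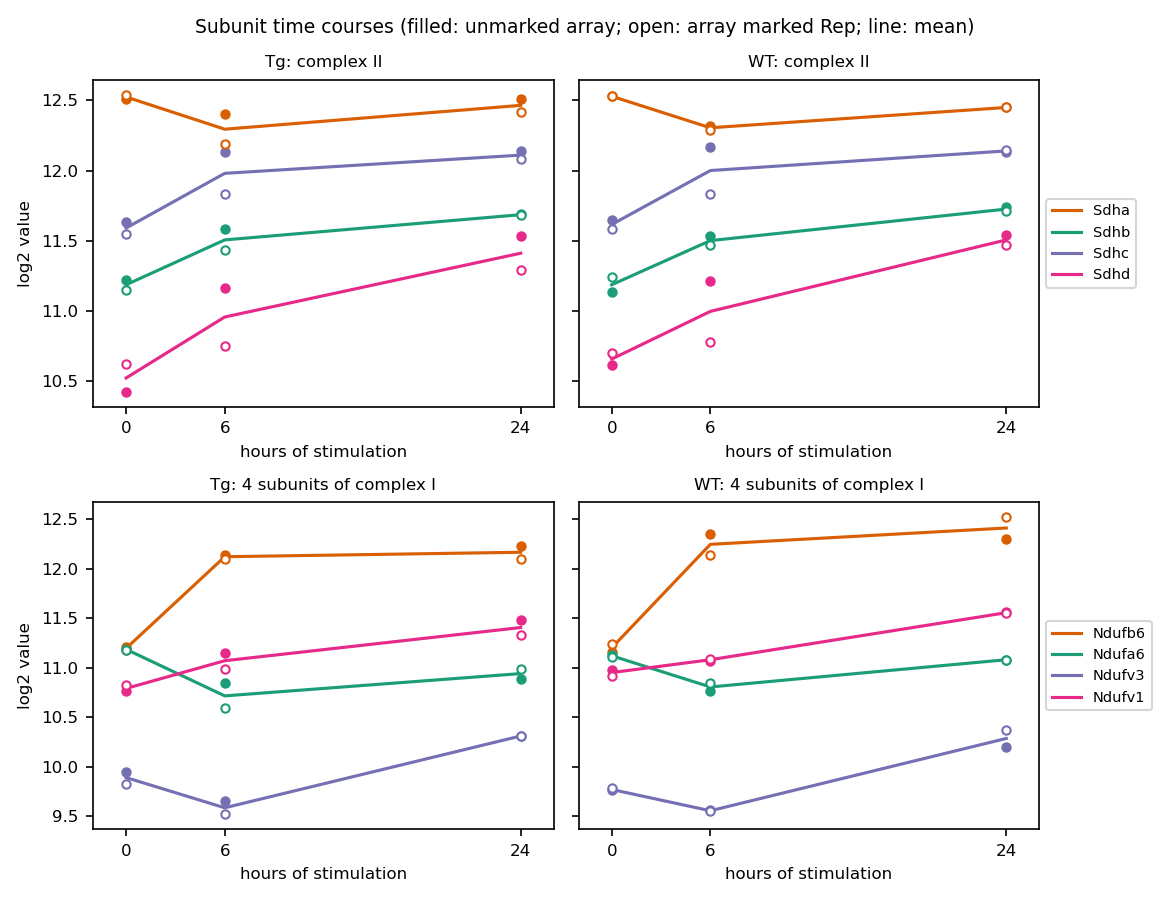
Log2 values on each array at 0, 6 and 24 h in Tg cells (left) and WT cells (right) for the 4 complex II genes (top) and 4 complex I genes (bottom); filled points are unmarked arrays, open points arrays marked Rep, lines group means. Sdhb, Sdhc and Sdhd climb while Sdha dips at 6 h, and Ndufb6 climbs while Ndufa6 and Ndufv3 dip at 6 h; heights of different genes cannot be compared, since they come from different probes.

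Complex II, succinate dehydrogenase, links the citric acid cycle to the respiratory chain and is encoded wholly in the nucleus. Its 4 genes did not move together. Sdha, the flavin-binding subunit that oxidises succinate, read 12.51 and 12.54 at 0 h, 12.40 and 12.19 at 6 h, and 12.51 and 12.42 at 24 h in Tg cells. Its WT values were 12.53 and 12.53 at 0 h, 12.32 and 12.29 at 6 h, and 12.45 and 12.45 at 24 h. The 6 h arrays were below the 0 h arrays in both genotypes, but the difference of -0.23 ± 0.09 did not pass in either (limma adjusted p = 0.082 in Tg cells and 0.087 in WT cells). Sdhb, the iron-sulfur subunit, read 11.22 and 11.15, then 11.58 and 11.43, and 11.69 and 11.68 in Tg cells, and 11.13 and 11.24, then 11.53 and 11.47, and 11.74 and 11.71 in WT cells. It rose by 0.32 at 6 h and 0.50 at 24 h in Tg cells and by 0.31 and 0.54 in WT cells. The 6 h calls missed without either Tg array at 0 h or the unmarked Tg array at 6 h, and without the unmarked WT array of either time (adjusted p reaching 0.12 in each genotype).

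Sdhd, one of the 2 membrane anchors, read 10.42 and 10.62 at 0 h, 11.16 and 10.75 at 6 h, and 11.53 and 11.29 at 24 h in Tg cells. WT cells gave 10.61 and 10.70 at 0 h, 11.21 and 10.78 at 6 h, and 11.54 and 11.47 at 24 h. At 6 h the unmarked arrays stood well above those marked Rep, and the differences of 0.43 and 0.34 did not pass (SE 0.17; adjusted p = 0.11 and 0.21). At 24 h it had risen by 0.89 in Tg cells and by 0.84 in WT cells (adjusted p = 0.0054 and 0.0060), without overlap and without a single array ending the call. Sdhc, the other anchor, rose at 24 h by 0.52 in Tg cells and by 0.53 in WT cells (adjusted p = 0.018 and 0.015), and its 6 h values of 0.39 and 0.38 did not pass (0.056 and 0.057) except with the replicate block (0.021 and 0.022). The 24 h calls of Sdhc missed without any of the 4 Tg arrays compared (up to 0.11), and in WT cells without the 0 h array marked Rep or either 24 h array (up to 0.082).

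In complex III, the cytochrome bc1 complex, the small subunit Uqcrq had the largest difference in each of the 4 comparisons with 0 h, and Uqcrh was the only gene without a call. Uqcrq, a small subunit beside cytochrome b, read 10.23 and 10.32 at 0 h, 11.24 and 11.68 at 6 h, and 11.01 and 11.09 at 24 h in Tg cells. In WT cells it read 10.23 and 10.26 at 0 h, 11.40 and 11.74 at 6 h, and 11.13 and 11.36 at 24 h. It was highest at 6 h in both genotypes. It rose 2.28-fold at 6 h and 1.71-fold at 24 h in Tg cells, and 2.50-fold and 2.0-fold in WT cells (limma adjusted p = 0.00056, 0.0074, 0.0003 and 0.0017). The Tg call at 24 h missed without the unmarked 0 h array (adjusted p = 0.051). Uqcr10, a small subunit next to cytochrome c1, read 9.83 and 9.81 at 0 h, 10.59 and 10.41 at 6 h, and 10.66 and 10.46 at 24 h in Tg cells. The WT arrays read 9.92 and 10.05, then 10.63 and 10.66, and 10.76 and 11.00. It rose by 0.68 and 0.74 in Tg cells and by 0.66 and 0.89 in WT cells, and no single array ended a call. Uqcr11, the smallest subunit, rose by 0.81 and 0.72 in Tg cells and by 0.46 and 0.72 in WT cells for 1 of its 2 probe sets, and the WT call at 6 h missed without the unmarked array at 0 h or at 6 h (up to 0.16).

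Uqcrfs1, the Rieske iron-sulfur protein, read 9.29 and 9.44 at 0 h, 9.84 and 9.82 at 6 h, and 9.75 and 9.69 at 24 h in Tg cells. Its WT values were 9.42 and 9.48, then 9.94 and 10.06, and 9.72 and 9.91. It rose by 0.47 and 0.36 in Tg cells and by 0.55 and 0.37 in WT cells. Its 24 h calls missed in Tg cells without the unmarked 0 h array or either 24 h array (up to 0.15), and in WT cells without either 0 h array or the 24 h array marked Rep (up to 0.13). The core proteins Uqcrc1 and Uqcrc2 rose by 0.33 to 0.51 in Tg cells and by 0.26 to 0.41 in WT cells (adjusted p from 0.0046 to 0.047). Of these 8 calls only that of Uqcrc1 in Tg cells at 6 h survived leaving out each array, and in the other 7 at least 1 array of the 2 groups compared ended the call, with adjusted p up to 0.16. The 3 probe sets of Uqcrb, a subunit that binds ubiquinone, rose in WT cells by 0.43 to 0.45 at 6 h and by 0.59 to 0.63 at 24 h. In Tg cells they differed by 0.23 to 0.25 at 6 h, where 1 of 3 passed, and by 0.28 to 0.33 at 24 h, where all 3 passed, 2 of them with the replicate block. The Tg calls each missed without at least 1 array (adjusted p up to 0.30). The difference between the genotypes in that response is given with the genotype comparison. Uqcrh, the acidic hinge protein, chosen after its values were seen, differed by -0.24 and -0.18 at 6 h and did not pass.

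Complex IV, cytochrome c oxidase, passes the electrons to oxygen, and several of its nuclear subunits have isoforms used in heart, muscle or testis. In Tg cells 9 of its 19 probe sets rose and 2 fell at 6 h and 11 rose at 24 h, and in WT cells 9 rose and 2 fell, then 10 rose and 2 fell. Cox5a, which sits on the matrix side, read 10.57 and 10.60 at 0 h, 11.46 and 11.35 at 6 h, and 11.60 and 11.29 at 24 h in Tg cells. WT cells gave 10.63 and 10.62 at 0 h, 11.36 and 11.39 at 6 h, and 11.56 and 11.57 at 24 h. It had the largest rise of the complex in every comparison with 0 h, 0.82 and 0.86 in Tg cells and 0.75 and 0.94 in WT cells (SE 0.10; adjusted p from 0.00028 to 0.0006). Cox5b, which binds zinc, rose by 0.50 and 0.51 for its 2 probe sets at 6 h and by 0.69 and 0.70 at 24 h in Tg cells, and by 0.43 and 0.49, then 0.60 and 0.65, in WT cells. No single array ended a call of Cox5a or Cox5b. Cox6b1, Cox7b and, chosen after their values were seen, both probe sets of Cox6c also passed in all 4 comparisons, with rises of 0.23 to 0.48. Each of these genes had calls that a single array ended, with adjusted p up to 0.22.

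The falls in complex IV at 6 h were those of Cox7a2l, both of whose probe sets fell in both genotypes. The protein, also called SCAFI or Cox7rp, takes part in joining complexes III and IV into supercomplexes, and C57BL/6 mice are known to make a shortened form of it. The brighter probe set read 10.62 and 10.54 at 0 h, 9.47 and 9.76 at 6 h, and 10.08 and 10.14 at 24 h in Tg cells. In WT cells it read 10.72 and 10.77 at 0 h, 9.35 and 9.86 at 6 h, and 10.18 and 10.06 at 24 h. The 6 h arrays were the lowest, and the 24 h arrays lay between them and the 0 h arrays, without overlap. At 6 h the differences of the 2 probe sets were -0.97 and -1.04 in Tg cells and -1.14 and -1.11 in WT cells (limma adjusted p = 0.0016, 0.0046, 0.00061 and 0.0030), and no single array ended these calls. At 24 h they were -0.47 and -0.56 in Tg cells, which did not pass (0.058 and 0.079), and -0.63 and -0.61 in WT cells, of which the brighter probe set passed (adjusted p = 0.016 and 0.054). With the array mark as a replicate block, both probe sets passed at 24 h in each genotype (adjusted p = 0.041 and 0.017 in Tg cells, and 0.010 for the dimmer one in WT cells). The WT call at 24 h missed without either 0 h array or the 24 h array marked Rep (up to 0.087).

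Cox7a2, of the same gene family and the form that most tissues use, moved the opposite way. It read 11.03 and 10.86 at 0 h, 11.26 and 11.34 at 6 h, and 11.53 and 11.45 at 24 h in Tg cells. The WT arrays read 10.98 and 11.04, then 11.36 and 11.26, and 11.55 and 11.50. It rose by 0.36 and 0.55 in Tg cells and by 0.30 and 0.52 in WT cells. The 6 h calls missed in Tg cells without the array marked Rep of either time (adjusted p reaching 0.10), and in WT cells without either 0 h array or the unmarked 6 h array (up to 0.15). The 7 isoforms known from other tissues (Cox6a2, Cox6b2, Cox7a1, Cox7b2, Cox8b and Cox8c in complex IV, with Ndufa4l2 in complex I) had medians of 0.08 and 0.03 at 6 h and 24 h in Tg cells and of 0.01 and -0.02 in WT cells. None of them passed upward, and the only fall was that of Cox8b in WT cells at 24 h (-0.36, adjusted p = 0.036, up to 0.17 without any of 6 arrays, the Tg arrays at 6 h and the WT arrays at 0 h and 24 h). Cox6a2, the muscle form, read 9.0 and 9.28 on the 24 h arrays marked Rep of Tg and WT cells, against 7.75 and 7.96 on the unmarked ones, so its spread was the largest in the family (SE 0.46).

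**Figure D4:**
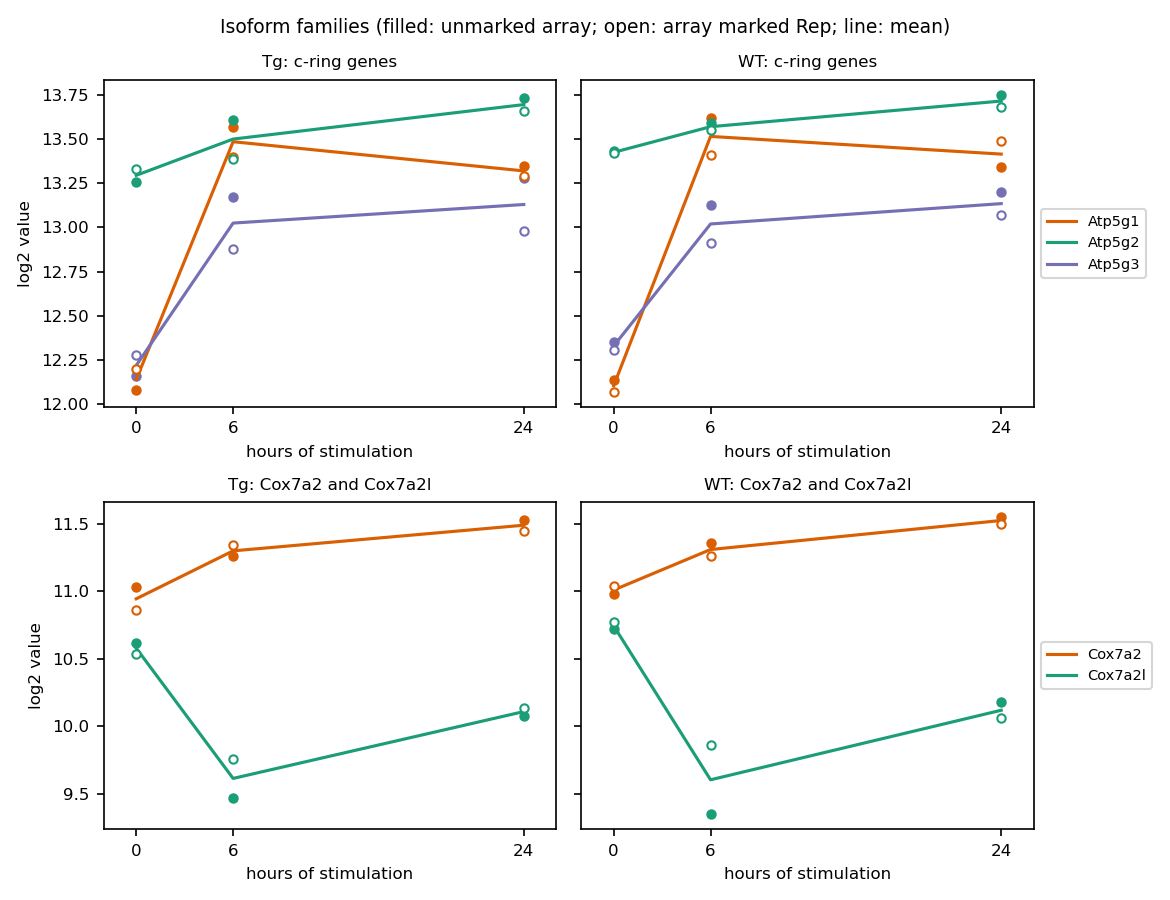
Log2 values on each array at 0, 6 and 24 h in Tg cells (left) and WT cells (right) for the 3 c-ring genes (top) and for Cox7a2 and Cox7a2l (bottom); filled points are unmarked arrays, open points arrays marked Rep, lines group means. Atp5g1 climbs most by 6 h and Atp5g2 least, and Cox7a2l drops to its lowest at 6 h while Cox7a2 climbs; heights of different genes cannot be compared, since they come from different probes.

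Complex V, the ATP synthase, held the largest rises of the family, and they were those of a c-ring gene. The ring of c subunits is the rotor that returning protons turn, and 3 genes, Atp5g1, Atp5g2 and Atp5g3, encode the same mature c subunit with different import sequences. Their promoter windows are shown because the c-ring genes moved apart in the data, with that of Cox7a2l as the gene of the largest fall. Each is the RefSeq window of 250 bases before and 50 after the start of the gene in build GRCm38.p6, 5′ to 3′ on the minus strand, on which all 4 genes lie: chr11:96075582-96075881 for Atp5g1, chr15:102670998-102671297 for Atp5g2, chr2:73911277-73911576 for Atp5g3 and chr17:83514284-83514583 for Cox7a2l. Capitals mark matches, on either strand, to the NRF1 motif (GCGC, then AT in the exact form or any 2 bases in the free form, then GCGC, the free form including the exact one), CCGGAAG (ETS factors such as GABP), AAGATGGCG (YY1), CCAAT (NFY), TCAAGGTCA (ERR) and CACGTG (E-box).
Atp5g1 promoter: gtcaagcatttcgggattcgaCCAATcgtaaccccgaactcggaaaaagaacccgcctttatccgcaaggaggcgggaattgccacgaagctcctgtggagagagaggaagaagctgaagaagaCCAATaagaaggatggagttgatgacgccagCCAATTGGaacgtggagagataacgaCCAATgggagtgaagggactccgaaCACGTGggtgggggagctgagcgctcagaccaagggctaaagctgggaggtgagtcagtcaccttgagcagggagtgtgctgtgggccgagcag
Atp5g2 promoter: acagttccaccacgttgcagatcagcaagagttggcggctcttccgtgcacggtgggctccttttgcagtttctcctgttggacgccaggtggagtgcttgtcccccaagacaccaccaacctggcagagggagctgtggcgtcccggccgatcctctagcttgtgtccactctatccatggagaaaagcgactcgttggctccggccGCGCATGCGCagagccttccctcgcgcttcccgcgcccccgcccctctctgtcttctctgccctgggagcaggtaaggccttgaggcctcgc
Atp5g3 promoter: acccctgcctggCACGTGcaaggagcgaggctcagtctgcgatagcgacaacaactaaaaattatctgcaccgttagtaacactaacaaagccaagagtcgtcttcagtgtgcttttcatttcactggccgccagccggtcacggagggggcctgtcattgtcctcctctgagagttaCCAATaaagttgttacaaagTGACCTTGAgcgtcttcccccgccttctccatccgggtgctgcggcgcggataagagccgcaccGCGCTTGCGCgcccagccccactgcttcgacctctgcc
Cox7a2l promoter: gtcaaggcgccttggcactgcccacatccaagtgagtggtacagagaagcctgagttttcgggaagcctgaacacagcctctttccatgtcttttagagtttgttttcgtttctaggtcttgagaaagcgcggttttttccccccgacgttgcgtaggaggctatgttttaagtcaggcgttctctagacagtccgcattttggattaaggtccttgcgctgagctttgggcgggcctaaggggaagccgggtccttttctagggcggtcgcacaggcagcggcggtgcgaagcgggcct
The Atp5g1 window held 5 CCAAT matches, a pair of which overlap on opposite strands, and 1 E-box. The Atp5g2 window held the NRF1 motif in its exact form and no other motif searched. The Atp5g3 window held 1 match each to the NRF1 form with free bases, CCAAT, ERR and the E-box, and the Cox7a2l window held none. The windows of Cox7a2, Cox5a and Cox5b, which rose, held none either, nor did that of Cox8b, which fell in WT cells at 24 h. A relation between motifs and changes was not tested.

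Atp5g1 had the largest rise of the family in each comparison with 0 h. Its probe set 10391100 read 12.08 and 12.20 at 0 h, 13.57 and 13.40 at 6 h, and 13.35 and 13.29 at 24 h in Tg cells. Its WT values were 12.14 and 12.07 at 0 h, 13.62 and 13.41 at 6 h, and 13.34 and 13.49 at 24 h. Every stimulated array was more than 1 log2 unit above every unstimulated one. The rise was 2.54-fold at 6 h and 2.27-fold at 24 h in Tg cells, and 2.66-fold and 2.48-fold in WT cells (limma adjusted p from 3.2e-05 to 0.00018), and the second probe set rose by 1.22 and 1.05 on the log2 scale in Tg cells and by 1.26 and 1.16 in WT cells. Atp5g3 read 12.16 and 12.28 at 0 h, 13.17 and 12.88 at 6 h, and 13.28 and 12.98 at 24 h in Tg cells. WT cells gave 12.35 and 12.31, then 13.13 and 12.91, and 13.20 and 13.07. It rose by 0.80 and 0.91 in Tg cells and by 0.69 and 0.81 in WT cells (adjusted p from 0.0016 to 0.0044). No single array ended a call of Atp5g1 or Atp5g3.

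Atp5g2 moved least. Its probe set 10560816 read 13.26 and 13.33 at 0 h, 13.61 and 13.39 at 6 h, and 13.73 and 13.66 at 24 h in Tg cells. In WT cells it read 13.43 and 13.42, then 13.59 and 13.55, and 13.75 and 13.68. At 6 h the differences of 0.20 and 0.15 did not pass (adjusted p = 0.14 and 0.29). At 24 h those of 0.40 and 0.30 did (0.010 and 0.035), but not in Tg cells without the unmarked array at 0 h or at 24 h (up to 0.075), nor in WT cells without any of 6 arrays, the 0 h arrays of both genotypes and the WT arrays at 24 h (up to 0.15). The other probe sets of Atp5g2 gave 0.14 to 0.23 at 6 h and 0.29 to 0.42 at 24 h.

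The 5 probe sets of the catalytic head and central stalk gave 3 calls higher in each of the 4 comparisons. Atp5b, the catalytic beta subunit, read 13.85 and 13.83 at 0 h, 14.08 and 14.04 at 6 h, and 13.96 and 13.93 at 24 h in Tg cells. The WT arrays read 13.75 and 13.75, then 14.08 and 14.03, and 13.94 and 13.92. The differences were small and largest at 6 h, 0.22 and 0.10 in Tg cells and 0.31 and 0.18 in WT cells at 6 h and 24 h, and only the 6 h values passed (adjusted p = 0.041 and 0.0076). The Tg call missed without any one of the 12 arrays (up to 0.16), and the WT call without the unmarked 6 h array (0.053). Atp5a1, the alpha subunit, rose by 0.31 and 0.46 in Tg cells and by 0.27 and 0.41 in WT cells, and its 6 h calls missed without either 0 h array or the unmarked 6 h array of the same genotype (up to 0.097 in Tg cells and 0.16 in WT cells). Atp5c1, the gamma subunit that forms the rotating shaft, differed by 0.15 and 0.01 at 6 h, which did not pass, and rose at 24 h by 0.38 in Tg cells and by 0.34 in WT cells. The 24 h calls of Atp5c1 missed in Tg cells without the unmarked 0 h array (0.062) and in WT cells without any of the 4 arrays compared (up to 0.067). Atp5d, the delta subunit of the shaft, read 0.21 to 0.29 higher and did not pass in any of the 4.

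Atp5e, the small epsilon subunit at the foot of the shaft, read 9.63 and 9.62 at 0 h, 10.40 and 10.35 at 6 h, and 10.40 and 10.36 at 24 h in Tg cells. Its WT values were 9.65 and 9.69, then 10.45 and 10.51, and 10.53 and 10.73. It rose by 0.75 and 0.76 in Tg cells and by 0.81 and 0.96 in WT cells (SE 0.08; limma adjusted p from 0.00012 to 0.00047), more than any other subunit of the head and shaft. In the peripheral stalk, which holds the head still, 4 of 7 probe sets rose at 6 h and 7 at 24 h in Tg cells, and 2 and 7 in WT cells. Atp5o, the stalk subunit that confers oligomycin sensitivity, had means of 11.08 at 0 h, 11.66 at 6 h and 11.85 at 24 h in Tg cells, and of 11.17, 11.76 and 11.94 in WT cells, without overlap between stimulated and unstimulated arrays. It rose by 0.58 and 0.77 in Tg cells and by 0.59 and 0.76 in WT cells, and no single array ended a call of Atp5e or Atp5o. The 3 probe sets of Atp5h, a stalk subunit chosen after its values were seen, differed by 0.02 to 0.20 at 6 h, which did not pass, and by 0.38 to 0.48 at 24 h, which did. Those 24 h calls passed in 5 to 7 of 12 fits in Tg cells and in 6 to 10 of 12 in WT cells when 1 array was left out.

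Of the 12 probe sets for the small membrane subunits around the ring, 9 rose at 6 h and 6 at 24 h in Tg cells, and 12 and 12 in WT cells. Atp5mpl, one of the smallest of them, read 10.48 and 10.35 at 0 h, 11.39 and 11.20 at 6 h, and 11.08 and 10.90 at 24 h in Tg cells. WT cells gave 10.52 and 10.53, then 11.45 and 11.27, and 11.04 and 11.15. It rose by 0.87 and 0.57 in Tg cells and by 0.84 and 0.57 in WT cells, and its 6 h arrays were the highest in both genotypes. The 3 probe sets of Atp5md, a small subunit chosen after its values were seen, rose by 0.54 to 0.60 and by 0.42 to 0.45 in Tg cells and by 0.65 to 0.68 and by 0.50 to 0.53 in WT cells at 6 h and 24 h. No single array ended a call of Atp5mpl or Atp5md. The gap between the genotypes in these counts at 24 h came from Atp5l, chosen after its values were seen. Its 6 probe sets differed by 0.25 to 0.33 in Tg cells, where none passed (2 with the replicate block). In WT cells they differed by 0.51 to 0.60, and all 6 passed. The difference between the genotypes in this response was -0.23 to -0.33 and did not pass for any of them (limma, unadjusted p from 0.062 to 0.22). Several probe sets under 1 symbol may read near-identical gene copies, which was not analysed here.

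Within isoform families the change of the ratio between 2 genes was tested over the 4 stimulated and the 4 unstimulated arrays of both genotypes, with 13 pairs at 2 times and p-values adjusted over the 26 exact permutation tests (two-sided). Labels were permuted without regard to genotype or array mark, and the tests were added after values were known, so their p-values are given as a description. Any ratio without overlap between the times compared reaches the smallest p that 4 against 4 allows, 0.029, and 17 tests did (adjusted p = 0.044). Of these, 2 are Cox7b over Cox7b2, which lay under the lower quartile on all arrays, so they restate the difference of Cox7b and are not read as a change of ratio. The ratio of Atp5g1 to Atp5g2 was higher by 1.20 on the log2 scale at 6 h (1.14 in Tg cells and 1.26 in WT cells) and by 0.90 at 24 h (0.78 and 1.01), without overlap between the times compared. That of Atp5g1 to Atp5g3 was higher by 0.63 and 0.38, and that of Atp5g2 to Atp5g3 lower, with changes of -0.57 and -0.51. The ratio of Cox7a2 to Cox7a2l was higher by 1.38 at 6 h (1.32 in Tg cells and 1.45 in WT cells) and by 1.08 at 24 h (1.02 and 1.15). For Ndufa4 over its isoform Ndufa4l2 the change was 0.44 at 6 h (exact permutation p = 0.086) and 0.85 at 24 h (exact permutation p = 0.029). For Cox6a1 over Cox6a2 the changes of 0.11 and 0.19 were within the spread (exact permutation p = 0.49 and 0.54). Of the other pairs, Cox7a1 over Cox7a2l reached the smallest p at both times, Cox7a1 over Cox7a2 at 6 h, and Cox6b1 over Cox6b2, Cox8a over Cox8b and Cox8a over Cox8c at 24 h. Group means of Cox7a1, Cox6b2, Cox8b, Cox8c and Ndufa4l2 all lay under the median of all tested probe sets. The ratios with these dim isoforms may thus also mostly restate the difference of the brighter gene.

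Between 6 h and 24 h fewer members changed. In Tg cells 4 of the 103 were higher at 24 h than at 6 h and 0 lower, where 7.89% of all tested probe sets were called higher and 6.42% lower. In WT cells 8 were higher and 0 lower, against 7.49% higher and 5.86% lower of all tested. The higher calls were 3.88% of the members in Tg cells, below the share over all probe sets, and 7.77% in WT cells, close to it. At an unadjusted p under 0.05 the members numbered 28 in Tg cells and 31 in WT cells, in either direction, or 27.2% and 30.1%, near the 26.6% and 27.1% of all tested. With the array mark as a replicate block the members' shares lay above those over all probe sets instead: the higher calls were 13 in Tg cells and 16 in WT cells, 12.6% and 15.5% of the members, where 9.96% and 9.56% of all tested probe sets were called higher. The block also gave 1 lower call in Tg cells, where 9.32% of all tested were lower, and this was Uqcrq (-0.41, adjusted p = 0.034). The 4 Tg calls were all of complex I (Ndufv3, Ndufv1, Ndufb5 and Ndufb11), and the 8 WT calls were of Ndufv3, Ndufv1, Ndufb5, Ndufb10, Ndufa13, Ndufs4, Cox6a1 and Atp5c1. Ndufv3 had the largest difference in each genotype, 0.72 in Tg cells and 0.73 in WT cells (SE 0.09; adjusted p = 0.0014 and 0.0015), and was the only member whose call no single array ended. Ndufv1 was higher by 0.33 in Tg cells and by 0.47 in WT cells, and Ndufb5, of the membrane arm, by 0.30 and 0.39. The Tg call of Ndufv1 missed without either 0 h array, the unmarked 24 h array or the 6 h array marked Rep, and its WT call without the unmarked 24 h array. Counts moved with single arrays, to 2 in Tg cells without either 0 h array, 1 without the unmarked 24 h or the marked 6 h array and 7 without either WT array at 6 h (with 1 lower without the unmarked Tg array at 6 h), and in WT cells to 3 without the unmarked 24 h array and to 4 without the 24 h or the 6 h array marked Rep.

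Several complex I subunits passed in both genotypes at 24 h and in neither at 6 h. Ndufa8, on the intermembrane-space side, differed at 6 h by 0.20 in Tg cells and 0.25 in WT cells, and at 24 h by 0.66 and 0.61. Ndufa9, next to the ubiquinone site, differed by 0.27 and 0.14 at 6 h and by 0.66 and 0.48 at 24 h. Ndufb3 differed by 0.19 and 0.18, then 0.55 and 0.55, and Ndufb5 by 0.19 and 0.13, then 0.48 and 0.51. Ndufb10, another membrane arm subunit, differed by 0.02 and -0.12 at 6 h and by 0.30 and 0.37 at 24 h. These genes were chosen after their values were seen, from 8 complex I probe sets in Tg cells and 12 in WT cells called higher at 24 h only. A call at 24 h only does not show a difference between the times. Ndufa7 in Tg cells differed from 0 h by 0.26 at 6 h and 0.32 at 24 h (limma adjusted p = 0.069 and 0.035). Between 6 h and 24 h it differed by 0.05 (adjusted p = 0.80). Directly between 24 h and 6 h, Ndufb5 passed in both genotypes and Ndufb10 in WT cells (adjusted p = 0.0078). With the replicate block Ndufa9 and Ndufb10 also passed in both, by 0.39 and 0.28 in Tg cells (adjusted p = 0.026 and 0.039) and by 0.34 and 0.49 in WT cells (0.048 and 0.0043). Ndufa8 passed with the block in Tg cells (0.45, adjusted p = 0.046) and not in WT cells (0.36, adjusted p = 0.10), and Ndufb3 in neither (0.11 and 0.10).

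**Figure D5:**
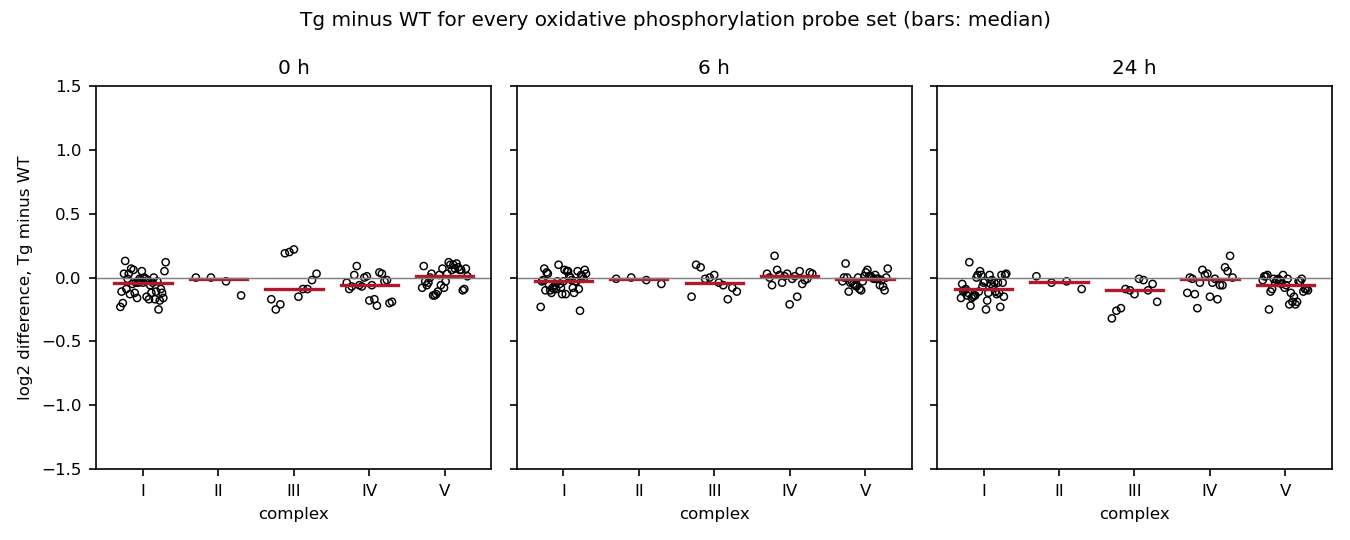
Log2 difference, Tg minus WT, of each probe set at 0, 6 and 24 h by complex; open points are probe sets and bars medians. All points lie between -0.32 and 0.22, none passed the test, and the axis has the range of the time differences.

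No member passed a test between Tg and WT cells. In limma, 0 of the 103 members were called at 0 h, 6 h or 24 h, on the average of the times, or for the difference in the 6 h or 24 h response. Of all tested probe sets 0.00854% were called at each of the 3 times, 0.0256% on the average and 0.0% for the differences in response. At an unadjusted p under 0.05, 3 members were found at 0 h, 1 at 6 h, 3 at 24 h, 4 on the average, 0 for the 6 h response and 4 for the 24 h response. Of all tested probe sets 3.56%, 2.61%, 4.26%, 6.34%, 1.79% and 2.67% lay under that p in these comparisons. The median difference of the members, Tg minus WT, was -0.04 at 0 h, -0.02 at 6 h and -0.06 at 24 h. Over all tested probe sets it was -0.02, -0.01 and -0.01. Single members ran from -0.25 to 0.22, from -0.26 to 0.17 and from -0.32 to 0.17. The standard error of such a difference had a median of 0.10 over the members, and the number of arrays limits what could be seen.

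The members with the smallest unadjusted p are given as values. On the average of the times Ndufs6 was lower in Tg cells by 0.22 ± 0.07 (difference -0.22; unadjusted p = 0.0082, adjusted p = 0.69 in limma), with means of 9.64 in Tg cells and 9.82 in WT cells at 0 h. Uqcr10 differed by -0.21 ± 0.06 and Atp5e by -0.13 ± 0.05 on the average (adjusted p = 0.71 and 0.77). At 24 h Uqcr10 read 10.66 and 10.46 in Tg cells, against 10.76 and 11.00 in WT cells, a difference of -0.32 that was -0.10 between the unmarked arrays and -0.54 between those marked Rep. The 3 probe sets of Uqcrb were higher in Tg cells at 0 h by 0.19 to 0.22 and lower at 24 h by 0.09 to 0.13, and the difference in the 24 h response was -0.28 to -0.35 (unadjusted p from 0.019 to 0.027, adjusted p = 1.0). These probe sets carry 1 gene and are not separate findings. At 0 h Ndufs5 differed by -0.25 and 1 probe set of Ndufa11 by -0.20. At 6 h Ndufs6 differed by -0.26, Uqcrfs1 by -0.17 and Cox6a1 by 0.17, and at 24 h Ndufb6 and Atp5e each by -0.25. Cox8b, a dim isoform, differed in the 24 h response by 0.37 ± 0.15. By complex, the medians of the average difference were -0.05 for I, -0.02 for II, -0.07 for III, -0.03 for IV and -0.03 for V. The median over all tested probe sets was -0.01.

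Promoter windows were matched for 66 of the 79 genes, in 71 windows. The NRF1 motif in its exact form stood in 7.04% of the members' windows, against 0.971% of all 32851 windows of the genome's genes and 1.33% of the 21262 windows of protein-coding genes. With 2 free bases it stood in 25.4% of the members' windows, against 6.23% and 8.57%. The ETS motif stood in 23.9%, against 8.86% and 11.6%, and the YY1 motif in 9.86%, against 1.40% and 1.83%. CCAAT stood in 42.3%, against 37.4% and 38.2%, and the E-box in 9.86%, against 7.15% and 7.84%. The ERR motif was found in 2 of the members' windows (2.82%, against 0.423% and 0.334%). By complex, the free-base NRF1 motif stood in 8 of 33 windows for I, 2 of 3 for II, 1 of 5 for III, 1 of 12 for IV and 6 of 18 for V. The YY1 motif stood in 5 of 33 windows for I, 2 of 18 for V and none for the others. Genes with several windows were counted with each of them. A match says only that the letters are there.

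Other genes of the pathway were counted by lists with 1 probe set per gene. Of all tested probe sets, 12.5% were higher and 12.9% lower at 6 h in Tg cells, and 12% and 11.8% at 24 h. In WT cells these shares were 12.6% and 13.9% at 6 h, and 12.9% and 13.8% at 24 h. The lists, here and below, are short and were not tested as sets, and most genes named from them were picked for the smallest p. Of 4 subunits outside the naming rule, 2 rose in every comparison with 0 h: the acyl carrier protein Ndufab1, by 0.99 and 0.86 in Tg cells and 0.84 and 0.84 in WT cells at 6 h and 24 h, and cytochrome c1 (Cyc1), by 0.82 and 0.58, and 0.66 and 0.58. Of 14 assembly factors of complex I, 8 rose and 1 fell at 6 h and 6 rose at 24 h in Tg cells, and 7 rose and 2 fell, then 10 rose, in WT cells. Ndufaf4 rose by 2.06 and 1.36 in Tg cells and by 1.91 and 1.39 in WT cells, more than any subunit. Tmem126b, which helps build the membrane arm, fell by 1.13 in Tg cells and by 0.98 in WT cells at 6 h. Of 4 assembly factors of complex II, 1 passed in any of the 4 comparisons, Sdhaf4, which fell by 0.52 in WT cells at 6 h.

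Of 6 assembly factors of complex III, 2 rose and 1 fell at 6 h and 3 rose and 2 fell at 24 h in Tg cells, and 3 rose and 1 fell, then 3 rose and 2 fell, in WT cells. Uqcc2, which stabilises cytochrome b, rose by 1.35 and 1.0 in Tg cells and by 1.11 and 0.92 in WT cells, while Uqcc3 fell by 0.70 and 0.52, and by 0.68 and 0.62. Of 17 factors for complex IV, 6 rose and 1 fell at 6 h and 7 rose at 24 h in Tg cells, and 6 and 8 rose in WT cells. Lrpprc, which stabilises mitochondrial messenger RNAs, rose by 1.45 and 0.94 in Tg cells and by 1.35 and 0.96 in WT cells. Of 4 factors for complex V, 3 rose in both Tg comparisons and 3 and 4 in WT cells.

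Of 13 genes of cytochrome c and ubiquinone synthesis, 7 rose and 2 fell at each time in Tg cells, and 6 rose and 3 fell, then 7 rose and 2 fell, in WT cells. Cycs, cytochrome c, rose by 0.58 and 0.52 in Tg cells and by 0.66 and 0.70 in WT cells. Coq4, needed to make ubiquinone, rose by 1.17 and 0.75, and by 1.24 and 0.98, and Coq8a, a kinase-like protein of the same pathway, fell by 0.91 and 0.99, and by 1.02 and 1.08. Of 15 regulators of mitochondrial genes, 5 rose at 6 h and 3 rose and 1 fell at 24 h in Tg cells, and 5 rose and 1 fell, then 4 rose and 1 fell, in WT cells. Pprc1, a coactivator of the PGC-1 family, rose by 1.61 and 0.74 in Tg cells and by 1.63 and 0.90 in WT cells, and Myc by 1.89 and 1.48, and by 2.23 and 1.92. Nrf1, whose motif was counted in the promoters, differed by 0.09 and -0.16 in Tg cells and by 0.12 and -0.17 in WT cells and did not pass. Of 5 carriers, uncouplers and inhibitors, the ADP and ATP carrier Slc25a4 differed by 0.01 in Tg cells and -0.02 in WT cells at 6 h and rose by 1.01 and 1.0 at 24 h, and its relative Slc25a5 rose by 0.72 and 0.75, and by 0.63 and 0.72.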

How the data were processed

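RNA of 12 samples was hybridised to one-colour Affymetrix arrays, and the deposited table holds log2 expression values per probe set, made by the authors with a background correction, summarisation and normalisation that are not given in the sources used here. Column medians as deposited ran from 7.39 to 7.50, a range of 0.11 above the limit of 0.1 set for leaving them, so the columns were quantile normalised. The platform annotation names 1 gene for 21789 of the 23410 tested probe sets and several for 1621, and probe sets without a gene were not tested. Differences were fitted with limma 3.58.1 in R 4.3.3 (lmFit and eBayes, 6 group means, 12 arrays), and p-values were adjusted by Benjamini-Hochberg over 23410 probe sets within each of 12 comparisons. A call is an adjusted p under 0.05. Figures and counts used Python 3.11.15 with pandas 2.3.3 and matplotlib 3.10.9. The fit was tested on simulated data.

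Replicates of a group correlated at 0.991 to 0.997, and precision is limited by 2 arrays per group. Deviations from the group means correlated between arrays of the same mark in all 15 pairs of groups (0.138 to 0.591), so the mark was treated as pairing the samples in the fit with a replicate block. The alternatives were 1 probe set per gene, all rows of the table, array weights, median centring, the compared groups alone, trended and robust moderation, the values as deposited, the replicate block, leaving out the 3 WT arrays marked Rep or the 40% dimmest probe sets, and leaving out each array.

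The members and lists were chosen with earlier results of these data known. Named were, per complex and time comparison, the 3 largest rises and falls among calls whose groups did not overlap; in genotype comparisons the 5 members with the largest statistic, as values; always the nuclear catalytic core genes analysed here, the isoform families and Ppp2ca; and up to 4 members of each other list. The tests of isoform ratios were added after values were known.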

Additional observations from a re-analysis of the deposited data

How the results depend on the processing

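No called difference of a named gene changed direction in any alternative, and the genotype comparisons gave 0 calls in every one, leaving out each array included. Calls higher at 6 h in WT cells were 36 with the compared groups alone and 37 without the 3 WT arrays marked Rep, which also left 39 higher and 0 lower in WT cells at 24 h. Calls lower at 6 h in Tg cells were 2 with median centring. Calls lower at 24 h in Tg cells were 2 with array weights, the compared groups alone, the replicate block, or without the 3 WT arrays marked Rep, and 1 with trended and robust moderation or without the 40% dimmest probe sets. From 6 h to 24 h the higher calls in Tg cells were 13 with the replicate block (1 lower), 9 without the dimmest, 7 with array weights, 2 without the WT arrays marked Rep, and 1 with median centring or the compared groups alone. In WT cells they were 16 with the replicate block, 3 with median centring, 2 without the WT arrays marked Rep and 1 with the compared groups alone. With the replicate block the other counts were 62 higher and 4 lower (Tg cells, 6 h), 61 and 3 (WT cells, 6 h), 80 higher (Tg cells, 24 h) and 84 and 3 (WT cells, 24 h). Among all members the block ended 1 call, that of a Uqcrb probe set in Tg cells at 24 h, and each other change was a gain. Leaving out 1 array gave 36 to 57 higher and 3 to 6 lower in Tg cells and 37 to 58 and 2 to 3 in WT cells at 6 h, 48 to 73 and 0 to 2 in Tg cells and 54 to 82 and 0 to 3 in WT cells at 24 h, and 1 to 7 and 0 to 1 in Tg cells and 3 to 7 and 0 in WT cells from 6 h to 24 h. Where counts fell with fewer samples, the fits had fewer arrays; the cause of the other shifts was not tested. Of the differences of named genes under an alternative, 3434 kept their side of the threshold, 208 lost it and 26 gained it. Median centring shifted the median of all probe sets by 0.09 at 6 h and by -0.12 in Tg cells and -0.10 in WT cells from 6 h to 24 h. Values of dim isoforms such as Cox7b2 lie near the floor of the arrays.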

Other observations

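Of the probe sets with several gene symbols, 6 name a subunit covered by the naming rule beside a copy and were not counted as members. The 2 probe sets shared by Ndufb4 and Ndufb4b, of the membrane arm of complex I, differed from 0 h by 0.47 and 0.45 at 6 h and by 0.26 and 0.27 at 24 h in Tg cells, and by 0.48 and 0.47, and 0.36 and 0.30, in WT cells, and all of these passed (limma adjusted p from 0.0012 to 0.045). The 3 probe sets shared by Cox7c, a small subunit of complex IV, and Gm12338 differed by 0.01 to 0.14 in these comparisons and did not pass. The probe set shared by Ndufs5 and a pseudogene differed by 0.16 to 0.29 and did not pass.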
